A study of Mus musculus with 15 samples.

Results

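DNA replication and mitosis genes were followed in mouse bone marrow-derived macrophages that lacked the AP-1 transcription factor Junb or were wild type, with and without bacterial lipopolysaccharide (LPS). The set holds 48 of the 20145 genes named on the arrays through a RefSeq accession: 22 genes of DNA replication, called S phase members here, and 26 genes of G2 and mitosis, called G2/M members. They were chosen by symbol as textbook genes of these processes, with earlier results of these data known. All 48 had a probe, and 46 passed the filter on dim probes and were tested among 14214 genes. The 2 that did not, the mitotic kinase gene Aurkb and the kinetochore gene Cenpf, were not well above background on any of the 15 arrays.

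The arrays covered 3 knockout samples with LPS, 4 untreated knockout samples, 4 wild type samples with LPS and 4 untreated wild type samples. All macrophages were grown from marrow in macrophage colony-stimulating factor (M-CSF) for a week, and LPS was given at 100 ng/ml for 4 h. Knockout cells were Junb-fl/fl Lyz2-Cre+/+ on a C57BL/6 background, so that Cre was driven from both copies of the myeloid lysozyme locus Lyz2, and wild type cells were C57BL/6 without these alleles. The labels call the samples of a group independent wells and give neither sex, age nor the number of mice, so that the spread behind each p-value is that between wells and may be technical.

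M-CSF is the growth factor that keeps such macrophages in cycle, and LPS is known to halt their division. Entry into S phase is driven by E2F transcription factors, which act on genes for origin licensing, DNA polymerases and nucleotide synthesis once the retinoblastoma protein releases them. Genes of G2 and mitosis are repressed in resting cells by the DREAM complex and activated later by B-MYB and FOXM1, through promoter elements named CHR (cell cycle genes homology region), often with CCAAT boxes nearby.

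RefSeq promoter windows (build GRCm38.p6, 250 bases before to 50 after a transcription start) were at hand for 40 of the 48 members, 19 of S phase and 21 of G2/M. The E2F core was searched as TTNNCGC with C or G at each N, the CHR element as TTTGAA or TTCGAA, and the CCAAT box as CCAAT, each on both strands. The E2F letters stood in 14 of 19 S phase promoters (73.7%), in 4 of 21 G2/M promoters (19%) and in 10.9% of all 27025 genes with a window. The CHR letters stood in 5 of 19 S phase promoters (26.3%), in 16 of 21 G2/M promoters (76.2%) and in 21.7% of all genes. CCAAT stood in 14 of 19 S phase (73.7%) and 17 of 21 G2/M promoters (81%), against 41.1% of all genes. Among protein-coding genes the shares were 13.7% for the E2F letters, 20.2% for CHR and 42.3% for CCAAT. In a shorter window, from 100 bases before the start, the E2F letters remained in 10 S phase and 1 G2/M promoters, and the CHR letters in 3 and 15. A match is a description of letters, not a bound site.

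The windows of 3 S phase members are printed because these genes lead the LPS response or its genotype difference and hold the E2F letters. Tk1 and Mcm2 also lead the LPS response, but their windows lack the E2F letters and are not printed. Capitals mark the E2F core and CCAAT on either strand, and each line runs 5′ to 3′ on the gene's strand. E2f2 lies on the plus strand at chr4:136172024-136172323, Mcm7 on the minus strand at chr5:138171217-138171516 and Mcm6 on the minus strand at chr1:128359656-128359955. E2f2 and Mcm7 each have a further window, not shown. In the Mcm6 window 2 pairs of E2F matches overlap.
E2f2: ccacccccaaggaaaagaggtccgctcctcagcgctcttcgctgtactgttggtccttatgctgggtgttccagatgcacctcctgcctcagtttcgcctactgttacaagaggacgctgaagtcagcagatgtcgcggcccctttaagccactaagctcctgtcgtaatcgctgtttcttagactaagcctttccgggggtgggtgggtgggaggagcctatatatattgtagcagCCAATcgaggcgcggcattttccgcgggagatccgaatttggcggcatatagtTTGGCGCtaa
Mcm7: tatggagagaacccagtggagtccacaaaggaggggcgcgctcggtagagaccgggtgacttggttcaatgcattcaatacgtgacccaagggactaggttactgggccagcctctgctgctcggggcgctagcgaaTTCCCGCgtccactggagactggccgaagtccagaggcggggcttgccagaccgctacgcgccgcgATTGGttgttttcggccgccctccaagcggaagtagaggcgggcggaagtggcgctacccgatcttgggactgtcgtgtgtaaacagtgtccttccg
Mcm6: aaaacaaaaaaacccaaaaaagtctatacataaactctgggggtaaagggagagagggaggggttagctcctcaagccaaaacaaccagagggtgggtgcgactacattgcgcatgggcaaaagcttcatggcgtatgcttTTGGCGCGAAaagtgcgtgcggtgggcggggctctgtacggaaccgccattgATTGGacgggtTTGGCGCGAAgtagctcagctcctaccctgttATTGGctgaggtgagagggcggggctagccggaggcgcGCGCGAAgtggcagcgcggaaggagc

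The windows of 3 G2/M members are printed by the same choice, with capitals for the CHR letters and CCAAT. Mki67 lies on the minus strand at chr7:135716330-135716629, Cdc20 on the minus strand at chr4:118437294-118437593 and Kif11 on the plus strand at chr19:37376132-37376431. In Cdc20 and Kif11 the CHR letters begin 18 and 19 bases before the start, with a CCAAT box upstream of them.
Mki67: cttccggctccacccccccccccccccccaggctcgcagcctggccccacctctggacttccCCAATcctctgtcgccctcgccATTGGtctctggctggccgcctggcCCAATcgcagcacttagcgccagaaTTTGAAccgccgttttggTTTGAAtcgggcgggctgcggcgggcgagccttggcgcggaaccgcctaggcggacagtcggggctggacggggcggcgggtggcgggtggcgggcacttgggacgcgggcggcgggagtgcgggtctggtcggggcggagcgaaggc
Cdc20: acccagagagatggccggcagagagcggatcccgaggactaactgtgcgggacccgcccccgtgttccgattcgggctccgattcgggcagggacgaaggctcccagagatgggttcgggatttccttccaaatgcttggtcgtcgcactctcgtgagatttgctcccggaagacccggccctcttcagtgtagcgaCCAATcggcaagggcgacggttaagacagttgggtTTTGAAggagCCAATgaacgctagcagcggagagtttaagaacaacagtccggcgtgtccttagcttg
Kif11: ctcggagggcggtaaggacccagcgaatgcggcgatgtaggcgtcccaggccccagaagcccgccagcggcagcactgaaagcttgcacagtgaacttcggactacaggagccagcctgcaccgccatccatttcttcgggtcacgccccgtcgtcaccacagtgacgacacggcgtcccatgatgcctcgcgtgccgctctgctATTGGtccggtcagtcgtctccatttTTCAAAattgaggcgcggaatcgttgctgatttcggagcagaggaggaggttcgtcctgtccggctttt

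Levels below are log2 of the processed signal over the array's 75th percentile, so that 0 is a signal at that percentile and -4.52 is the floor below which no value was read. Arrays had 75th percentiles between 481.8 and 1490 signal units and 51% to 63.2% of spots well above background, so that dim members are the least precise. Junb was well above background on 0 of 7 knockout arrays and on all 8 wild type arrays, as the labels require. All 8 macrophage markers measured were well above background on all 15 arrays. The signal of the brightest, Csf1r, varied widely, from 3415 to 381700. Summed as signal over the 75th percentile, the 8 markers gave 538 to 1350 on untreated knockout and 887 to 1040 on untreated wild type arrays, which overlap. All 7 knockout arrays lay on one slide and all 8 wild type arrays on another. The female transcript Xist was well above background on none of the knockout and all of the wild type arrays, and the Y-linked Ddx3y and Eif2s3y on all of the knockout and none of the wild type arrays. Lyz2, whose locus carries Cre in the knockout, gave signals of 868.7 to 3793 on knockout arrays and 345900 to 448200 on wild type arrays. Slide, sex, the Lyz2-Cre alleles and the loss of Junb therefore cannot be told apart in any value that sets knockout against wild type. Each LPS response, in contrast, lies within a slide and a genotype. Arrays measure RNA of the whole culture, in which fewer dividing cells and less RNA per cell cannot be told apart.

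With LPS, most S phase members were lower within 4 h in both genotypes, and so were 58.3% of the tested G2/M members in knockout and 50% in wild type cells. In knockout cells 13 of 22 S phase members fell and 4 rose, with a median log2 fold change of -1.23, and 14 of 24 tested G2/M members fell and 3 rose, with a median of -0.58 (limma, adjusted p under 0.05). In wild type cells 15 of 22 S phase members fell and 5 rose (median -1.04), and 12 of 24 G2/M members fell and 5 rose (median -0.44). Cdc6, Bub1b, Kif11 and Kif2c passed the filter on dim probes only through untreated groups, which favours a fall, and their called falls are counted here. For the 20 G2/M members well above background on every array, array medians averaged -1.05 with LPS and -0.50 untreated in knockout cells. In wild type cells these were -1.49 and -1.27. Over all 14214 genes tested, 27.4% fell and 32.4% rose in knockout cells (median 0.19), and 25.5% fell and 34.9% rose in wild type cells (median 0.14). With both phases counted together, 27 of 46 members fell in each genotype (58.7%). Under quantile normalisation, which moved the median of all genes to -0.08 in knockout and -0.12 in wild type cells, 36.4% and 35.9% of all genes fell, against 56.5% and 54.3% of the members.

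The medians were lower for S phase than for G2/M members in both genotypes, a difference that was not tested. Centred on each gene's own mean over the 4 groups, the S phase median was -0.34 ± 0.07 on knockout arrays with LPS and 0.70 ± 0.18 on untreated knockout arrays (SD, n = 3 and 4). On wild type arrays it was -0.66 ± 0.16 with LPS and 0.28 ± 0.15 untreated (n = 4 each). The G2/M median was -0.04 ± 0.07 on knockout arrays with LPS and 0.68 ± 0.05 on untreated ones, and -0.54 ± 0.05 on wild type arrays with LPS and -0.17 ± 0.05 on untreated ones. For both phases the arrays with LPS lay below the untreated arrays of the same genotype with no overlap. Untreated knockout arrays lay above untreated wild type arrays, with no overlap for either phase, and over all genes the 4 group medians stayed between -0.11 and 0.07.

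**Figure D1:**
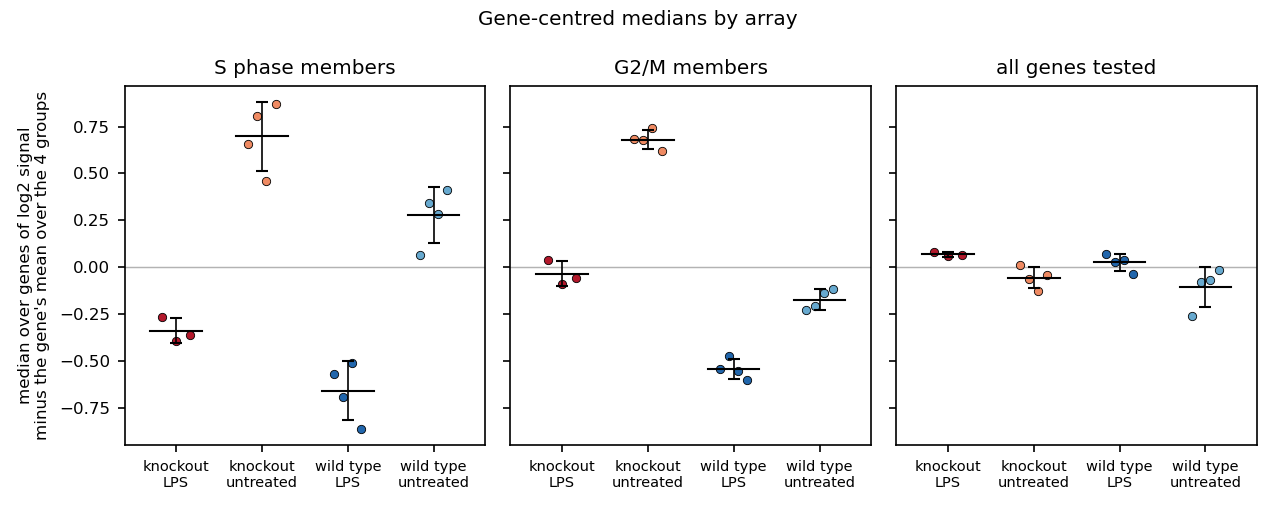
Median over the tested members of each phase, and over all genes tested, of the log2 signal minus the gene's mean over the 4 groups, for each array (points), with group mean (line) and SD (bar), n = 3 for knockout with LPS and 4 elsewhere. The S phase median of every array with LPS lies at -0.27 or lower and that of every untreated array at 0.06 or higher, and the G2/M median is highest on untreated knockout arrays, between 0.62 and 0.74.

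Among the origin licensing genes, which load the MCM helicase on DNA before S phase, the LPS response split by member. Mcm2 was at -2.57, -2.66 and -2.79 on knockout arrays with LPS and between -0.34 and -0.11 on untreated ones, and at -4.16 to -3.60 on wild type arrays with LPS against -1.40 to -0.90 on untreated ones. It fell by 2.44 ± 0.15 on the log2 scale in knockout cells (adjusted p = 6.95e-09). In wild type cells it fell by 2.70 ± 0.14 (adjusted p = 8.65e-10), or 6.51-fold. The wild type values with LPS lay above the floor, but on none of these arrays was Mcm2 well above background. Where a fall is given below as "at least" so many fold, values under the floor were taken as the floor itself. Mcm7 was at 0.33, -0.29 and 0.17 on knockout arrays with LPS and at 2.48 to 2.64 on untreated ones. Wild type arrays had it at -0.47 to -0.09 with LPS and at 1.80, 1.72, 1.78 and 2.37 untreated. It fell by 2.51 ± 0.17 in knockout and by 2.22 ± 0.16 in wild type cells (adjusted p = 2.33e-08 and 3.06e-08), and no array with LPS overlapped an untreated one.

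Mcm3, Mcm4 and Mcm5 fell too, with log2 fold changes of -1.58, -1.52 and -1.13 in knockout cells and -1.97, -1.01 and -1.08 in wild type cells. For Mcm4, 1 untreated knockout array was left out for a marked spot, and the fall did not pass in either genotype with that spot kept. Mcm6, a subunit of the same helicase, did not share this at the 75th percentile scaling. It was at 4.66, 4.39 and 4.40 on knockout arrays with LPS and at 4.48 to 4.79 on untreated ones, which overlap. In wild type cells it was at 5.01 to 5.40 with LPS and 3.55 to 4.46 untreated, a rise of 1.20 ± 0.16 (adjusted p = 2.05e-05), against -0.13 ± 0.18 in knockout cells (adjusted p = 0.537). Other processing moved both: in knockout cells Mcm6 fell by 0.67 under quantile normalisation, fell by 0.68 under normexp (a background correction) and fell by 0.72 in the deposited values (adjusted p = 0.00112, 0.000953 and 0.000954), and in wild type cells the rise was 0.32 under normexp (adjusted p = 0.0527).

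The other licensing genes gave weaker results. Cdc6, an MCM loader, fell by 1.08 ± 0.40 in wild type cells (adjusted p = 0.0308), where it was well above background on 1 of 4 arrays with LPS, and was at -0.43 ± 0.43 in knockout cells (adjusted p = 0.406). The call in wild type cells was lost without either of 2 untreated arrays (replicates 2 and 3), without any of 3 arrays with LPS (replicates 1, 2 and 4) and in 3 other alternatives. Cdt1, the partner of Cdc6 in loading, and Orc1, the largest subunit of the origin recognition complex, passed in neither genotype, with fold changes between -0.30 and 0.48.

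Genes of the replication fork were divided as well. Prim1, the catalytic subunit of primase, was among the stronger falls, with -2.19 ± 0.19 in knockout and -1.93 ± 0.18 in wild type cells. Gins2, of the helicase complex, fell by 1.33 ± 0.19 and by 0.53 ± 0.18, and Pola1, of the priming polymerase, by 0.38 ± 0.15 and by 0.53 ± 0.14 (knockout, then wild type). The call of Pola1 in knockout cells (adjusted p = 0.0478) was lost in 17 alternatives, 11 of which left out 1 array. Pole, the leading strand polymerase, is unsettled: it fell by 0.86 ± 0.30 in wild type cells and was at 0.35 ± 0.32 in knockout cells, while another of its probes gave -1.35 in knockout and -2.43 in wild type cells.

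Rfc3, a subunit of the clamp loader, and Pcna, the clamp itself, were higher with LPS. Rfc3 was at 0.75, 0.41 and 0.97 on knockout arrays with LPS and at -0.33 to 0.03 on untreated ones, and at 1.26 to 1.72 on wild type arrays with LPS and -0.27 to -0.18 on untreated ones. It rose by 0.82 ± 0.15 in knockout and 1.73 ± 0.14 in wild type cells (adjusted p = 0.000238 and 6.45e-08), without overlap in either. Pcna rose by 0.91 ± 0.20 in knockout cells and 0.73 ± 0.19 in wild type cells (adjusted p = 0.00368 in wild type). Neither rise passed under quantile normalisation (0.17 and -0.03), under normexp (0.15 and 0.03) or with scaling by the median (0.52 and 0.41). The rise of Rfc3 in knockout cells was also lost with scaling by the median (0.44, adjusted p = 0.301).

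In nucleotide synthesis, LPS lowered 3 of 4 members in both genotypes. Tk1, thymidine kinase of the salvage pathway, was at 1.04, 0.84 and 0.60 on knockout arrays with LPS and 2.95 to 3.05 on untreated ones, and at -1.37 to -1.07 on wild type arrays with LPS and 2.43 to 2.61 on untreated ones. It fell by 2.17 ± 0.11 in knockout cells and by 3.73 ± 0.10 in wild type cells (adjusted p = 1.15e-09 and 1.57e-12). The 4 groups were fully separated. Rrm1 and Rrm2, the subunits of ribonucleotide reductase, fell by 1.62 and by 1.78 in knockout cells, and by 1.35 and by 1.07 in wild type cells. Tyms, thymidylate synthase, which makes the same nucleotide as Tk1 by another route, went the other way and rose by 1.62 ± 0.17 in knockout and 1.67 ± 0.16 in wild type cells.

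Of the 3 E2F factors among the members, E2f1 and E2f2 were lower and E2f8 was higher with LPS. E2f2, an activator, had the largest mean response among S phase members: it was at -1.27, -1.39 and -0.96 on knockout arrays with LPS and 1.83 to 2.66 on untreated ones. On wild type arrays it was at -2.18, -2.58, -2.53 and -0.84 with LPS and 1.81 to 2.30 untreated. It fell by 3.39 ± 0.34 in knockout and by 4.02 ± 0.32 in wild type cells (adjusted p = 1.14e-06 and 7.79e-08). E2f1, also an activator, fell by 1.49 ± 0.13 and by 1.16 ± 0.12, and E2f8, a repressor of E2F targets, rose by 1.26 ± 0.17 and 1.13 ± 0.16 (knockout, then wild type).

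**Figure D2:**
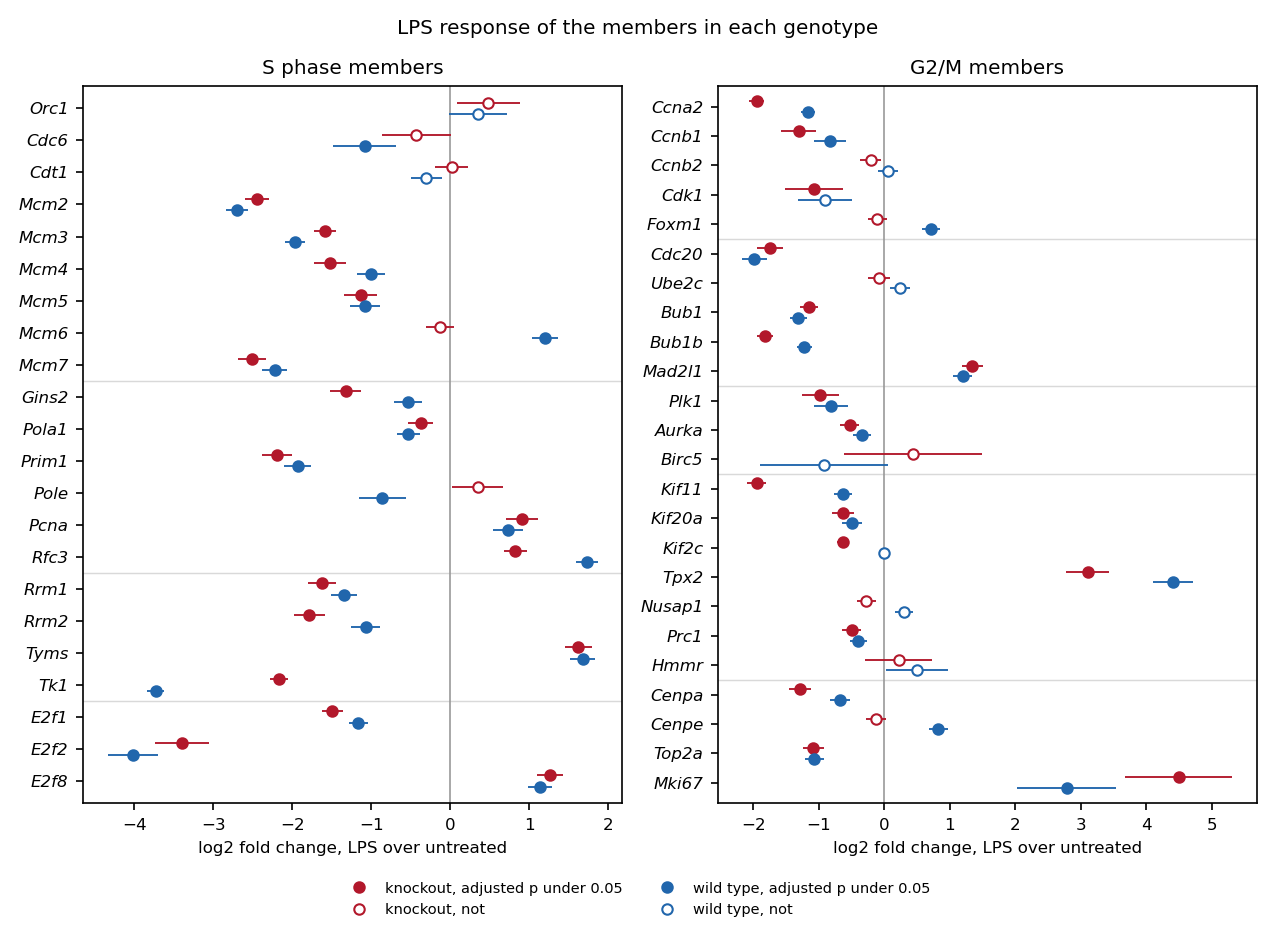
Log2 fold change with LPS over untreated for each tested S phase and G2/M member, with its SE (bars), in knockout (red, upper) and wild type cells (blue, lower); filled points passed the test and grey lines divide roles. E2f2 and Tk1 lie farthest left among S phase members, and Mki67 and Tpx2 farthest right among G2/M members.

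The G2/M members held both falls and the largest rises of the set. Among the cyclins and their kinase, Ccna2, cyclin A2, was at -2.33, -2.45 and -2.60 on knockout arrays with LPS and -0.68 to -0.35 on untreated ones, and at -3.12 to -2.93 on wild type arrays with LPS and -2.04 to -1.73 on untreated ones. It fell by 1.95 ± 0.11 in knockout and by 1.17 ± 0.11 in wild type cells (adjusted p = 4.17e-09 and 3.02e-07), and no groups overlapped. Ccnb1, cyclin B1, fell by 1.31 ± 0.26 and by 0.83 ± 0.24, and its 2 other probes gave falls in both genotypes. Ccnb2, cyclin B2, passed in neither. Cdk1, the kinase these cyclins activate, was at -1.07 ± 0.44 in knockout cells, which passed (adjusted p = 0.0493) but was lost in 12 alternatives, 9 of which left out 1 array, and at -0.91 ± 0.41 in wild type cells, which did not (adjusted p = 0.0694).

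Foxm1, the transcription factor of G2/M genes, was at -2.19, -2.58 and -2.36 on knockout arrays with LPS and -2.54 to -2.09 on untreated ones, which overlap. On wild type arrays it was at -2.53 to -2.31 with LPS and -3.40 to -2.97 untreated, a rise of 0.71 ± 0.13 (adjusted p = 0.000357), against -0.11 ± 0.14 in knockout cells (adjusted p = 0.524). The rise in wild type cells did not pass with scaling by the median (0.39), under normexp (0.18) or in the deposited values (0.19), with adjusted p = 0.196, 0.186 and 0.394.

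Cdc20, the mitotic activator of the anaphase-promoting complex, was at -1.25, -1.56 and -1.60 on knockout arrays with LPS and 0.06 to 0.38 on untreated ones, and at -2.10 to -1.26 on wild type arrays with LPS and -0.05 to 0.57 on untreated ones. It fell by 1.75 ± 0.20 in knockout and by 1.98 ± 0.18 in wild type cells (adjusted p = 3.66e-06 and 3.95e-07). The spindle checkpoint kinase Bub1 fell by 1.16 and by 1.31 (knockout, then wild type). Its partner Bub1b was not well above background on any array with LPS and was at least 3.54-fold lower in knockout and 2.33-fold lower in wild type cells. Mad2l1, the checkpoint protein that inhibits Cdc20, rose by 1.34 ± 0.16 and 1.20 ± 0.15, and Ube2c, an enzyme of the anaphase-promoting complex, passed in neither genotype.

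Among mitotic kinases and the chromosomal passenger complex, Plk1 fell by 0.98 ± 0.28 in knockout and by 0.81 ± 0.26 in wild type cells, and Aurka fell by 0.53 ± 0.15 and by 0.35 ± 0.14. The call of Aurka in wild type cells was lost in 14 alternatives, 8 of which left out 1 array, and those of Plk1 without replicate 3 of knockout with LPS (-0.69) and without replicate 1 of wild type with LPS (-0.68). Birc5, survivin, did not pass, at 0.43 ± 1.05 and -0.93 ± 0.97: 1 untreated knockout array (replicate 3) stood at -3.90 for its probe, against 1.65 to 2.01 on the others, and without that array Birc5 was at -1.01 in knockout cells. Another Birc5 probe gave -1.02 in knockout and -0.89 in wild type cells (adjusted p = 0.000745 and 0.00106 over all kept probes).

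Of the spindle genes, Tpx2, which activates the Aurora A kinase on spindle microtubules, had the largest rise in wild type cells. It was at 0.35, -0.78 and 0.44 on knockout arrays with LPS and -3.83 to -2.73 on untreated ones, and at 0.85 to 1.55 on wild type arrays with LPS and -3.55 to -2.83 on untreated ones. It was 8.60-fold higher with LPS in knockout and 21.3-fold higher in wild type cells (SE of the log2 values 0.33 and 0.30, adjusted p = 1.56e-06 and 1.58e-08). A second probe was at the floor on all untreated arrays, so that its log2 rises of 1.88 in knockout and 2.89 in wild type cells are lower bounds. Kif11, the kinesin that pushes spindle poles apart, was well above background on every untreated array, at -2.82 to -2.43 in knockout and -4.07 to -3.54 in wild type cells, and on no array with LPS. It was at least 3.87-fold lower with LPS in knockout and 1.55-fold lower in wild type cells.

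Kif20a, a kinesin of cytokinesis, fell by 0.63 in knockout and by 0.49 in wild type cells, and Prc1, which bundles the midzone microtubules, by 0.50 and by 0.40. In wild type cells Kif20a was at -0.15 under normexp and -0.07 in the deposited values (adjusted p = 0.481 and 0.828), and the call of Prc1 was lost in 6 alternatives, among them the fits without replicate 4 of untreated wild type (-0.32) and without replicate 4 of wild type with LPS (-0.31). Kif2c, which depolymerises microtubules, was at least 1.55-fold lower with LPS in knockout cells. On all wild type arrays it was set to the floor, so that no response could be read there. By the scanner's mark it was well above background on 4 of 4 untreated wild type arrays and on 1 of 4 with LPS. Nusap1 and Hmmr, both spindle proteins, passed in neither genotype.

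Mki67, which encodes the proliferation marker Ki-67, was raised by LPS. It was at 5.87, 5.82 and 5.83 on knockout arrays with LPS, and on untreated ones at 2.64, 2.54, -2.02 and 2.18. Wild type arrays averaged 5.71 ± 0.12 with LPS and 2.92 ± 0.16 untreated (SD, n = 4 each). In both genotypes every array with LPS lay above every untreated one. It rose by 4.50 ± 0.82 in knockout and 2.79 ± 0.76 in wild type cells (adjusted p = 0.000288 and 0.00553). A second probe, on which that knockout array did not stand apart, gave rises of 3.35 ± 0.11 and 2.81 ± 0.11. Of the other chromosome genes, the centromeric histone gene Cenpa fell by 1.29 and by 0.68 and the topoisomerase gene Top2a fell by 1.09 and by 1.07 (knockout, then wild type).

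Cenpe, a kinetochore motor, was at -0.03, -0.26 and -0.19 on knockout arrays with LPS and -0.18 to 0.16 on untreated ones, which overlap. Wild type values lay at 0.14 to 0.46 with LPS and -0.75 to -0.17 untreated, a rise of 0.82 ± 0.14 (adjusted p = 0.000185), against -0.13 ± 0.15 in knockout cells (adjusted p = 0.479).

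**Figure D3:**
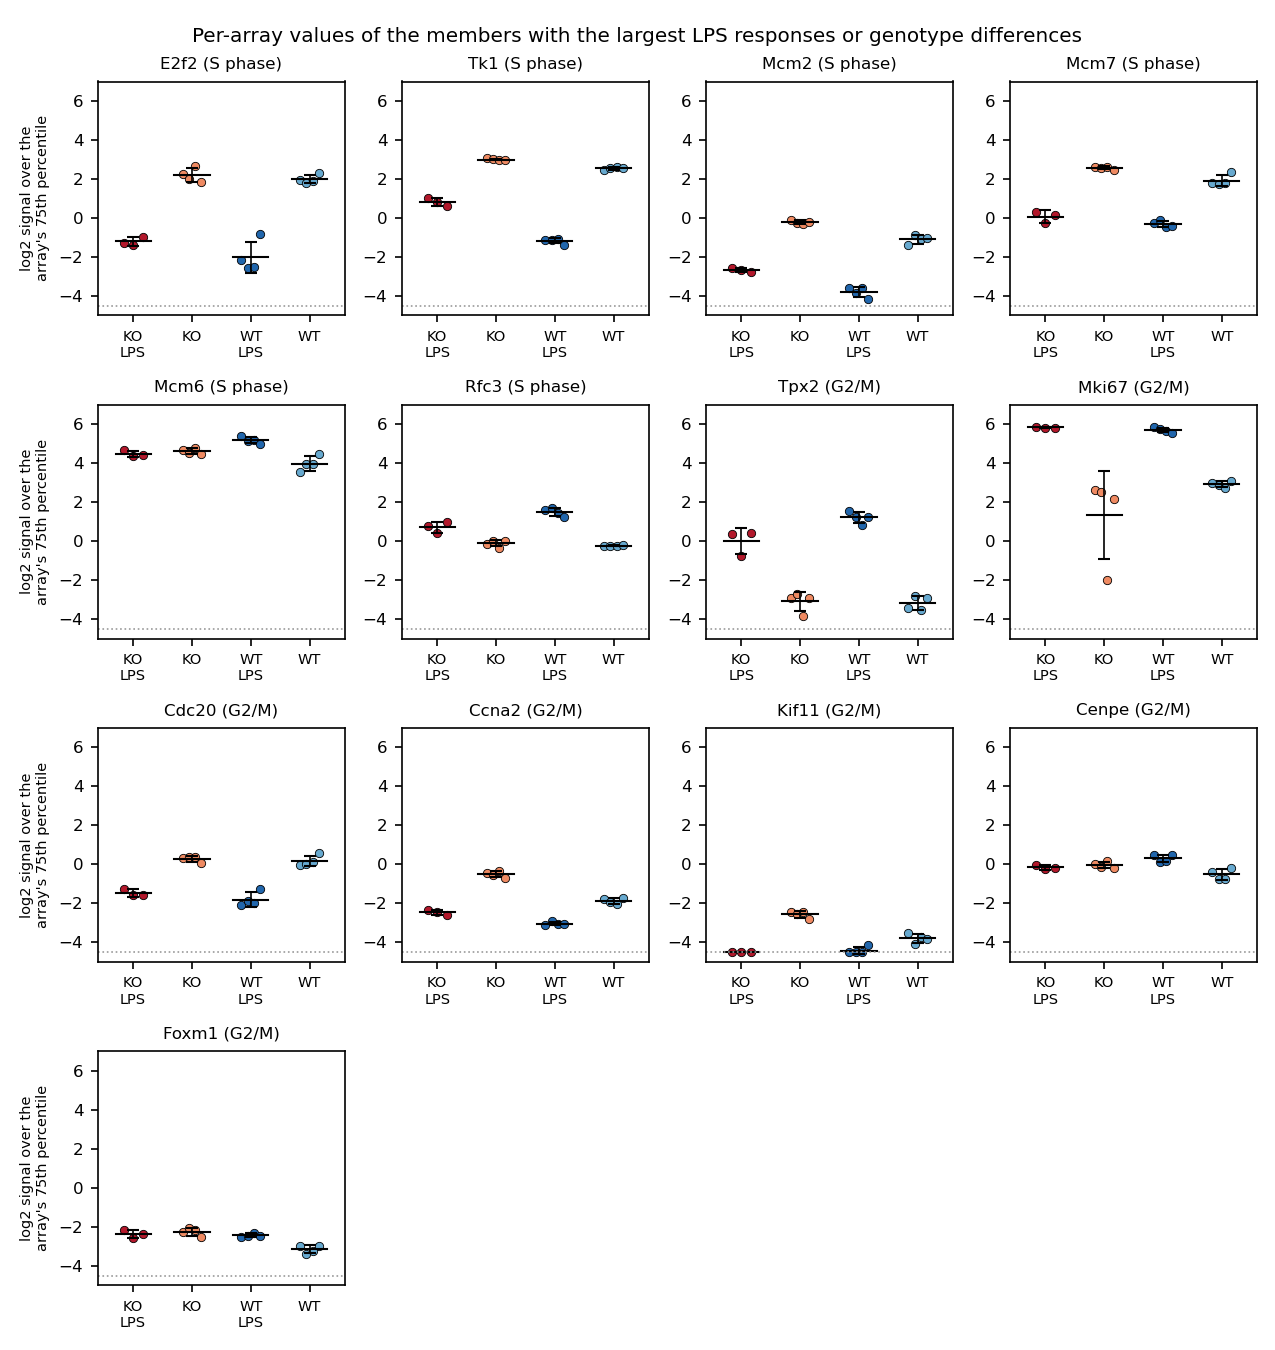
Log2 signal over the array's 75th percentile for 13 members (points are arrays, lines group means, bars SD; KO is knockout, WT wild type; n = 3 for knockout with LPS and 4 elsewhere), with the floor of -4.52 dotted. Tk1 separates all 4 groups, Mcm6, Cenpe and Foxm1 are higher with LPS in wild type cells, and 1 untreated knockout array of Mki67 stands apart at -2.02.

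The genotype difference of the LPS response was tested as an interaction. It passed for 9 of 46 members: 1 (2.17%) was higher, as were 2.9% of all genes, and 8 (17.4%) were lower, as were 7.15% of all genes. Tk1 had the only positive value, 1.56 ± 0.15 (adjusted p = 2.59e-05), its fall being smaller in knockout cells. Mcm6 (-1.33 ± 0.24, adjusted p = 0.00327), Cenpe (-0.96 ± 0.21, adjusted p = 0.0111) and Foxm1 (-0.82 ± 0.20, adjusted p = 0.0175) rose in wild type cells only by their own tests, and the interaction passed for each. Rfc3, at -0.91 ± 0.20 (adjusted p = 0.0102), rose less in knockout cells, and Ccna2, at -0.78 ± 0.16 (adjusted p = 0.00614), fell more. In the deposited values the interaction of Rfc3 was -0.42 (adjusted p = 0.719), and that of Foxm1 was lost in 5 alternatives, among them the fit without replicate 3 of knockout with LPS (-0.72, adjusted p = 0.0562). The interaction of Ccna2 was lost under quantile normalisation (-0.84, adjusted p = 0.0709) and in the deposited values (-0.85, adjusted p = 0.095).

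The interactions of Kif11 (-1.32 ± 0.19), Kif2c (-0.64 ± 0.11) and Bub1b (-0.60 ± 0.17) rest on groups at or near the floor with LPS, so that they follow the untreated levels and are no measure of how far each genotype fell. Kif2c was at the floor on untreated wild type arrays too. That of Bub1b was lost in 14 alternatives, 10 of which left out 1 array. Scaled by each array's median in place of its 75th percentile, no member's interaction passed, and 0.922% of all genes did. By phase, 3 S phase (13.6%) and 6 G2/M members (25%) passed, against 10.1% of all genes, so that the S phase count is near the background. The 6 G2/M members include Kif11, Kif2c and Bub1b, so that the G2/M share is no sure excess over the background. In the deposited values 2 of 23 G2/M interactions passed (8.7%, against 4.5% of all genes). The S phase count was 5 without either of 2 arrays, replicate 4 of untreated wild type and replicate 4 of wild type with LPS.

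Before LPS, members were higher in knockout than in wild type cells. Of 46 members 26 were higher (56.5%), against 11.9% of all genes, and 0 were lower, against 5.83%. The count was 10 of 22 in S phase, with a median of 0.35, and 16 of 24 in G2/M, with a median of 0.61, beside 0.04 over all genes. All 5 of the cyclin, Cdk1 and Foxm1 group were higher, by 0.89 (Foxm1) to 1.36 (Ccna2). The call of Cdk1 was lost in 10 alternatives, 5 of which left out 1 array, and its arrays overlapped, and those of Foxm1 and Ccnb2 were lost with scaling by the median. Cenpa was 1.59 ± 0.15 higher (adjusted p = 8.2e-06), Prc1 1.44 ± 0.13 (adjusted p = 6.5e-06), Kif11 1.23 ± 0.13 and Nusap1 1.18 ± 0.14.

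In S phase the largest of these differences was that of Rrm2, at 1.39 ± 0.18 (adjusted p = 0.000112). Mcm2, Mcm3, Mcm4, Mcm6 and Mcm7 were higher by 0.63 to 0.88, Prim1 by 0.76, Rrm1 by 0.60, Pola1 by 0.53 and Tk1 by 0.45. The call of Rrm1 was lost in 9 alternatives, 5 of which left out 1 array. None of the 3 E2F factors passed, with values between 0.06 and 0.27. Tpx2 and Cdc20, which responded strongly to LPS, were at 0.09 ± 0.30 and 0.11 ± 0.18 and did not pass. Mki67 was at -1.58 ± 0.76 (adjusted p = 0.175), and its second probe at -0.43 ± 0.11 (adjusted p = 0.0155 over all kept probes). Scaling by the median gave 8 members higher, 1 in S phase and 7 in G2/M, against 3% of all genes. Ube2c did not pass, at -0.02 ± 0.15, and was at 0.54 as the mean of its 2 probes (adjusted p = 0.0391). Mad2l1, one of the 26, was at 0.57 on its brightest probe and at 0.03 as the mean of its kept probes (adjusted p = 0.948).

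**Figure D4:**
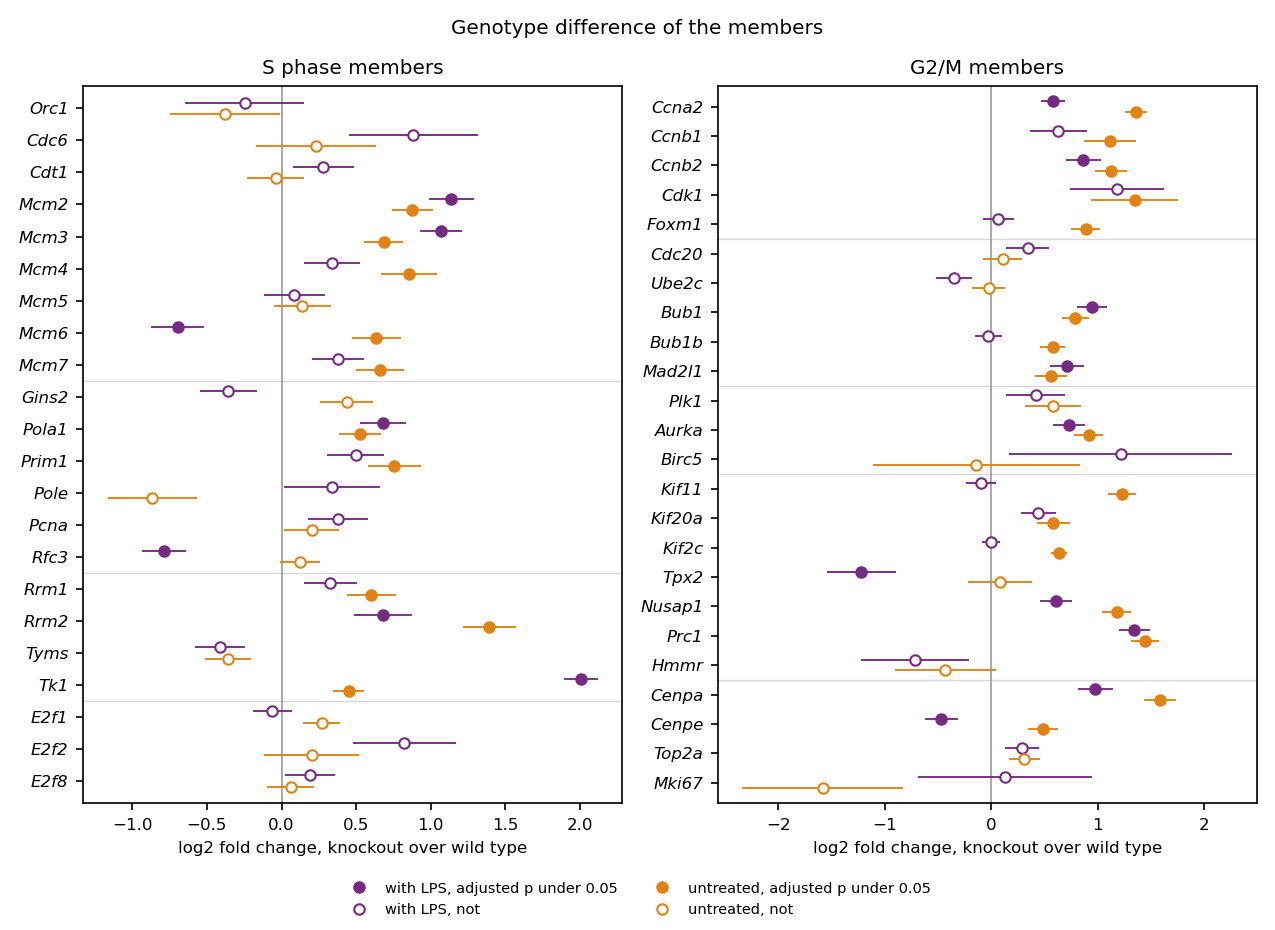
Log2 fold change of knockout over wild type for each tested member, with its SE (bars), with LPS (purple, upper) and untreated (orange, lower); filled points passed the test and grey lines divide roles. Most untreated values lie to the right of 0, and Tk1 with LPS lies farthest right at 2.01.

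Markers of other cells were read on the same arrays, as sums of signal over the 75th percentile. The sum of 6 erythroid markers was 20.2 to 28.5 on untreated knockout arrays and 11.5 to 16.6 on untreated wild type arrays, with no overlap. Of these 6 markers, 4 to 5 were well above background on untreated knockout arrays and 3 to 4 on untreated wild type arrays. Nearly all of the sum is Tfrc, the transferrin receptor, which dividing cells also carry and which was well above background on all 15 arrays. Without it the sum was 0.928 to 1.44 on untreated knockout and 0.595 to 1.13 on untreated wild type arrays, which overlap. The sum of 6 progenitor markers was 1.7 to 3.67 on untreated knockout and 1.59 to 2.61 on untreated wild type arrays, which overlap. Without Meis1, its brightest gene, it was 1.45 to 1.63 on untreated knockout and 0.583 to 0.684 on untreated wild type arrays, with no overlap. Among the genes left in this sum Cd34 reached the highest signal, 2096, followed by Myb at 319.7. Taken singly, 1 of 5 progenitor markers tested was higher in untreated knockout cells (20%, against 11.9% of all genes) and 0 were lower. Their median was -0.13, against 0.04 over all genes. With LPS this sum without Meis1 was 1.27 to 1.49 in knockout and 0.544 to 0.839 in wild type cells. That of 8 neutrophil and precursor markers was 5.8 to 6.65 on untreated knockout and 6.92 to 12 on untreated wild type arrays, and Mpo was well above background on 0 arrays. With LPS the neutrophil sum was 18.3 to 20.9 in knockout and 48.4 to 65 in wild type cells, and without S100a8, its brightest gene, it was 4.8 to 5.6 and 6.67 to 9.08. The part of these markers in the members' differences was not tested.

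With LPS, members differed between the genotypes in both directions. Of 46 members 13 were higher in knockout cells (28.3%), against 13.6% of all genes, and 4 were lower (8.7%), against 17.1%. Tk1 was 4.02-fold higher, at 2.01 ± 0.11 (adjusted p = 2.87e-08), Prc1 1.35 ± 0.15 (adjusted p = 1.48e-05), Mcm2 1.14 ± 0.15 and Mcm3 1.07 ± 0.14. Cenpa, Bub1, Ccnb2, Aurka, Mad2l1, Nusap1 and Ccna2 were higher by 0.58 to 0.98, and Rrm2 and Pola1 by 0.68 each. Mad2l1 was at 0.72 on its brightest probe and at 0.28 as the mean of its kept probes (adjusted p = 0.271). The 4 that were lower were Tpx2 (-1.22 ± 0.33, adjusted p = 0.0119), Rfc3 (-0.79 ± 0.15, adjusted p = 0.00124), Mcm6 (-0.69 ± 0.18, adjusted p = 0.00934) and Cenpe (-0.47 ± 0.15, adjusted p = 0.0345). The call of Cenpe was lost in 10 alternatives, 4 of which left out 1 array, and with the replicate number as a block (-0.43, adjusted p = 0.0697), and that of Tpx2 without replicate 3 of knockout with LPS (-0.83, adjusted p = 0.0747). Leaving out the 3 most deviating arrays (replicate 3 of untreated knockout, replicate 1 of untreated wild type and replicate 4 of wild type with LPS) gave 20 higher and 4 lower, and scaling by the median 2 higher and 0 lower.

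Further genes of these pathways, listed from textbooks, were counted in the same comparisons. With LPS, 24 of 38 other replication genes fell and 5 rose in knockout cells, and 20 fell and 7 rose in wild type cells. That is 63.2% lower and 13.2% higher in knockout cells, against 27.4% and 32.4% of all genes, and 52.6% lower and 18.4% higher in wild type cells, against 25.5% and 34.9%. Gmnn, geminin, the inhibitor of Cdt1, fell by 4.24 and by 4.71 (knockout, then wild type), Pole2, a polymerase subunit, fell by 3.71 in knockout cells and fell by 2.93 in wild type cells, and Rpa1, which coats single-stranded DNA, fell by 2.30 and by 2.56. Timeless, a fork protection gene, rose by 2.50 ± 0.21 in knockout and 4.23 ± 0.20 in wild type cells, with an interaction of -1.73 ± 0.29 (adjusted p = 0.00179). The initiation factor gene Mcm10 rose by 0.89 and 1.36, and Pold3, a polymerase delta subunit, by 0.51 and by 0.49.

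Of 35 other mitosis genes, 27 fell and 2 rose in knockout cells, and 21 fell and 1 rose in wild type cells. That is 77.1% and 60% lower, against 27.4% and 25.5% of all genes, and 5.71% and 2.86% higher, against 32.4% and 34.9%. Cdc25b, the phosphatase that activates Cdk1, fell by 3.81 in knockout cells and fell by 3.12 in wild type cells, Cdca5, sororin, by 2.49 and by 2.76, and Fbxo5, an inhibitor of the anaphase-promoting complex, by 2.76 and by 2.30. Cks2, a Cdk1 partner, rose by 0.61 and 0.72. Untreated, 16 of these 35 were higher in knockout cells (45.7%) and 0 lower. Of the 38 other replication genes 9 were higher (23.7%) and 1 lower (2.63%). Over all genes 11.9% were higher and 5.83% lower.

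Of 15 regulators of the E2F, retinoblastoma and DREAM families that are no members, 6 fell and 3 rose in each genotype. In all 60% were called, as were 59.9% of all genes in knockout and 60.4% in wild type cells, so that the count of both directions together is at the background. By direction 40% fell and 20% rose in each genotype. Over all genes 27.4% fell and 32.4% rose in knockout cells, and 25.5% fell and 34.9% rose in wild type cells. With 15 genes this difference is uncertain, and it was not tested. Rbl1, the pocket protein p107 of the DREAM complex, rose by 2.71 ± 0.17 in knockout and 3.56 ± 0.16 in wild type cells, with an interaction of -0.85 ± 0.23 (adjusted p = 0.0345). Tfdp2, a dimer partner of E2F factors, fell by 3.01 in knockout cells and fell by 3.44 in wild type cells, E2f6, a repressive E2F, by 1.04 and by 1.61, and Lin37, of the DREAM core, by 1.15 and by 0.67. E2f5, also a DREAM subunit, rose by 1.12 and 1.43, and the activator E2f3 by 0.58 and 0.70. Untreated, 2 of the 15 were higher in knockout cells (13.3%), near the 11.9% of all genes, and 0 were lower, against 5.83%.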

How the data were processed

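RNA of the 15 wells was amplified as aminoallyl-incorporated antisense RNA and coupled to Cy3, per the labels' protocols, and each sample was hybridised to a one-colour Agilent array. The deposited scanner files hold spot intensities made with Feature Extraction 10.7.3.1, per the file headers, and the processed signal used here is background-corrected. A deposited table of log2 values for 50378 probes followed the ranks of the median spot signal, with the normalisation unstated. It served as an alternative.

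Each array's 75th percentile over 59305 non-control spots scaled its processed signals, which were floored at 0.0436 of that percentile and taken to log2. Feature Extraction's marks for uneven spots and for outliers among spots of a probe led to missing values (4827 spots, and 0.317% of values among genes tested). No spot was saturated. Spots of a probe were averaged, and a probe was kept where it was well above background on 3 or more arrays of 1 group, which left 32534 of 55681 probes. RefSeq accessions named 26582 probes by 1 symbol (GRCm38.p6). Of several kept probes of a gene, that with the highest mean stood for it, which bears on 3488 genes.

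Group means over all 15 arrays were fitted with limma 3.58.1 in R 4.3.3, without the replicate number as a block, and p-values were adjusted by Benjamini-Hochberg over 14214 genes at a threshold of 0.05. Between knockout and wild type arrays with LPS, same-numbered arrays deviated together (r = 0.446, 0.243 and 0.135). Over all pairs of groups r ran from -0.535 to 0.563, so that these values do not establish that the numbers pair samples. The value with a replicate block is given where it changes a call between knockout and wild type with LPS. The fit was tested on simulated data. The 48 members and all gene lists were chosen with earlier results of these data known. Every member could be named. Values on every array were given, in each phase, for the 4 with the largest mean LPS response and the 4 with the largest genotype difference of that response, and of each further list up to 3 genes in each direction were named. Motifs were counted in RefSeq promoter windows.

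Alternatives were scaling by the median, quantile normalisation, normexp with an offset of 50 on the median spot signal (the mean spot signal was not used here), the deposited log2 values, no filter and a stricter filter on dim probes, marked spots kept, a lower floor, the mean of a gene's probes, fits of the LPS responses within a genotype, a replicate block, and leaving out arrays. Gene-centred medians were added after seeing the data.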

Additional observations from a re-analysis of the deposited data

Results flagged for a closer look

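In 3 of 48 groups of 4 arrays, 1 array stood far from the other 3 by Dixon's test, which chance gives in about 1 group of 20. For Mcm7 it was untreated wild type replicate 4, at a log2 level of 2.37, with the others at 1.72 to 1.80. For Mki67 it was untreated knockout replicate 3, at -2.02, with the others at 2.18 to 2.64, and Birc5 was at -3.90 on the same array. For Kif11 it was wild type replicate 4 with LPS, at -4.14, with the others at the floor of -4.52. Values set to the same floor make any value above it stand out by this test, so that this case is no sign of a deviating array. Processed signals of Kif11 in that group ran from 20.4 to 34.6.

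The LPS response differed between the genotypes by the interaction test for 7 members described by array. In knockout minus wild type response, on the log2 scale, this difference was 1.56 for Tk1, -1.33 for Mcm6, -1.32 for Kif11, -0.96 for Cenpe, -0.91 for Rfc3, -0.82 for Foxm1 and -0.78 for Ccna2. For Kif11 it rests on groups at or near the floor with LPS. None of the 7 passed when arrays were scaled by their median, and the cause was not tested.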

How the results depend on the processing

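Over the 46 members and all alternatives, 1187 of 1235 values of the LPS response in knockout cells and 1168 of 1235 in wild type cells kept their direction and their side of the threshold, as did 1144 of 1189 interactions, 1119 of 1189 genotype differences with LPS and 1115 of 1189 untreated. Scaling by the median left 0 S phase and 0 G2/M interactions, 1 S phase and 7 G2/M genotype differences untreated, and 1 S phase and 1 G2/M with LPS. Over all genes it left 131 of 1429 interactions, 672 of 2515 genotype differences untreated and 1175 of 4367 with LPS, and the deposited values left 562, 1190 and 2725 of 12486 genes. All-gene LPS responses became 12.5% higher and 27.2% lower in knockout and 17.9% and 25.3% in wild type cells by the median, against 21.6% and 36.4%, and 26% and 35.9%, by quantile normalisation. With the deposited values 9 S phase members fell in wild type cells, 2 G2/M interactions passed, and 3 S phase members differed untreated and 4 S phase and 5 G2/M members with LPS, of 16 and 23 measured. Normexp gave 6 G2/M genotype differences with LPS. Without the 3 most deviating arrays there were 5 S phase interactions (22.7%, against 15.7% of all genes). S phase genotype differences with LPS then numbered 11 (50%, against 38.9% of all genes). Leaving out 1 array gave 3 to 5 S phase and 4 to 8 G2/M interactions.

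Signs turned for Mcm4 untreated with marked spots kept (-0.43), Pcna in wild type cells under quantile normalisation (-0.0251), Ube2c untreated as the mean of its probes (0.54) and Kif2c untreated with no filter (-0.0389). Birc5 lay between -1.01 and 0.96 in its LPS response in knockout cells, and between -0.67 and 1.30 in its untreated genotype difference, over fits without 1 array, and at -1.01 and 1.21 without the 3 arrays. The causes were not tested. Same-numbered replicates correlated between -0.535 and 0.563 in their deviations. Between knockout and wild type arrays with LPS all 3 pairs were above 0.1, and between other groups at least 1 pair was not. With a replicate block, 7 members rose and 27 fell in knockout cells, 10 rose and 26 fell in wild type cells, 8 interactions passed, and 26 members were higher and 1 lower untreated and 13 higher and 3 lower with LPS, where Cenpe was lost. The 1 lower untreated was Pole (-0.87, adjusted p = 0.0418). The 15 arrays limit precision, and members near background are least precise.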
